A study of Rattus norvegicus with 8 samples.

Results

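Axon guidance ligands and receptors were followed across the cell types of the rat spinal cord after a weight-drop contusion. The set was taken by gene symbol, from every gene whose name starts with Sema, Plxn, Slit1 to Slit3, Robo, Epha, Ephb, Efna, Efnb, Ntn or Unc5. Of the 32623 genes in the files, 69 matched. Unc50 and Unc5cl match only in spelling and were set aside, which left 67 guidance genes, and 34 of these had at least 500 unique molecular identifiers (UMIs, each standing for 1 captured RNA molecule) over the kept cells and are called well-counted here.

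Guidance genes encode secreted or membrane-bound cues and the receptors that read them. Semaphorins bind plexins, the secreted class 3 members with the help of neuropilins. Slits bind Robo receptors, ephrins bind Eph receptors and can signal back into the cell that carries them, and netrins attract through Dcc and repel through Unc5 receptors. In the cord they are best known for steering growing axons and for acting on regrowth near a lesion, and many also act in blood vessel growth, immune cell contacts and the migration of oligodendrocyte precursors.

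The 8 libraries came from spinal cord of 8-week-old Wistar rats of 4 groups, with 2 libraries each. Sham rats had the bone over the cord opened and no blow. Rats of the mild, moderate and severe groups had a weight dropped on the exposed cord from increasing heights, and tissue around the lesion was taken 7 days later. The labels name no genetic change or drug in any group. They do not say how many rats a library held, but the study counts as many cords as libraries, so each library is taken as a single cord. The p-values measure the spread between these libraries, which may in part be technical.

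Of 68658 barcodes, 55455 cells passed the filters, 2336 to 10016 per library, with 23535282 to 99689125 UMIs per library and a median of 2745 to 10836 UMIs per cell. Of the 55105 kept barcode sequences, 344 occurred in more than 1 library. Sham replicate 1 stood apart: it held 97.7% of the 4899 cells named neutrophils, its median of 2745 UMIs was the lowest, and neutrophil markers summed to 5037 CPM (UMIs per 1000000 UMIs of all genes) in its fibroblasts against 9.41 to 262 in fibroblasts of the other libraries. It is therefore in doubt whether this library stands for a sham cord, and each injured-against-sham value below carries that doubt. Sham replicate 2 was the smallest library and held 1 named neutrophil. A further cluster of 5627 cells, led by G0s2, Cxcl2 and Il1b and with 38.0% of its cells from mild replicate 1, matched neutrophils best (7 of 16 markers) but was left unnamed for its low median of 925 UMIs, so the named cells may not hold all neutrophils. Macrophages/microglia numbered 491 and 1964 cells in the sham libraries and 1076 to 7288 in the injured ones, oligodendrocytes 43 to 1336 and oligodendrocyte precursors 72 to 1165 per library. Named neutrophils reached 20 cells in 3 libraries, endothelial cells in 4 and dendritic cells in 6, the latter all injured, and levels were measured there. Astrocyte-like cells, also called astrocytes below, were named on 7 of 14 markers. In injured libraries astrocyte markers summed to 1150 to 4601 CPM in them and to 2164 to 4725 CPM in oligodendrocytes. They also carried neuron markers at 619 to 1434 CPM and pericyte markers at 458 to 1466 CPM, so their name is uncertain. Neurons formed no cluster, so levels in the cells whose axons are guided were not measured.

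The semaphorins were the most numerous family, with 20 genes, 13 of them well-counted and 80743 UMIs together. Plexins followed with 9 genes, 7 well-counted and 66587 UMIs. Of 13 Eph receptors 5 were well-counted, of 8 ephrins 3, of 3 Slits 2, of 4 guidance Unc5 receptors 2, and of 4 Robo receptors and 6 netrins 1 each, Robo2 and Ntn1. Plxnb2 alone gave 44721 UMIs, followed by Sema4a with 25510, Sema3c with 16299 and Sema4d with 11512. The cut at 500 UMIs fell between Ephb4 (555) and Robo2 (603) on the inside and Epha3 (410), Epha4 (402) and Efna4 (400) on the outside. The other 33 guidance genes had 0 to 410 UMIs, with Epha8 at 0. Their levels are described at the end where they exceeded 10 CPM, beside Epha3 and Epha7, which did not.

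Each well-counted member was compared between cell types on UMIs summed per library and type, with the library as a block. Types had been formed from the same cells without the guidance genes, by genes that vary with them, and 21.5 to 43.7% of 13054 genes were called higher in a type other than erythrocytes, so a call of this kind is common. Oligodendrocyte precursors had 21 of 34 members called higher (43.7% of all genes), fibroblasts 20 (39.8%), astrocytes 17 (34.4%), oligodendrocytes 15 (38.4%), endothelial cells 12 (21.5%), microglia-like cells 11 (33.3%), dendritic cells 9 (26.8%), macrophage-like cells 8 (30.9%), neutrophils 6 (26.4%), T cells/NK cells 3 (27.8%) and erythrocytes 0 (5.58%; 0 members at an unadjusted p under 0.05). Every well-counted member was called in at least 2 types, 14 of them in 3 and 14 in 4, so none was restricted to a single type by this test. Between genes, levels below are CPM of 3′ UMIs, which count molecules and need no length correction.

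**Figure D1:**
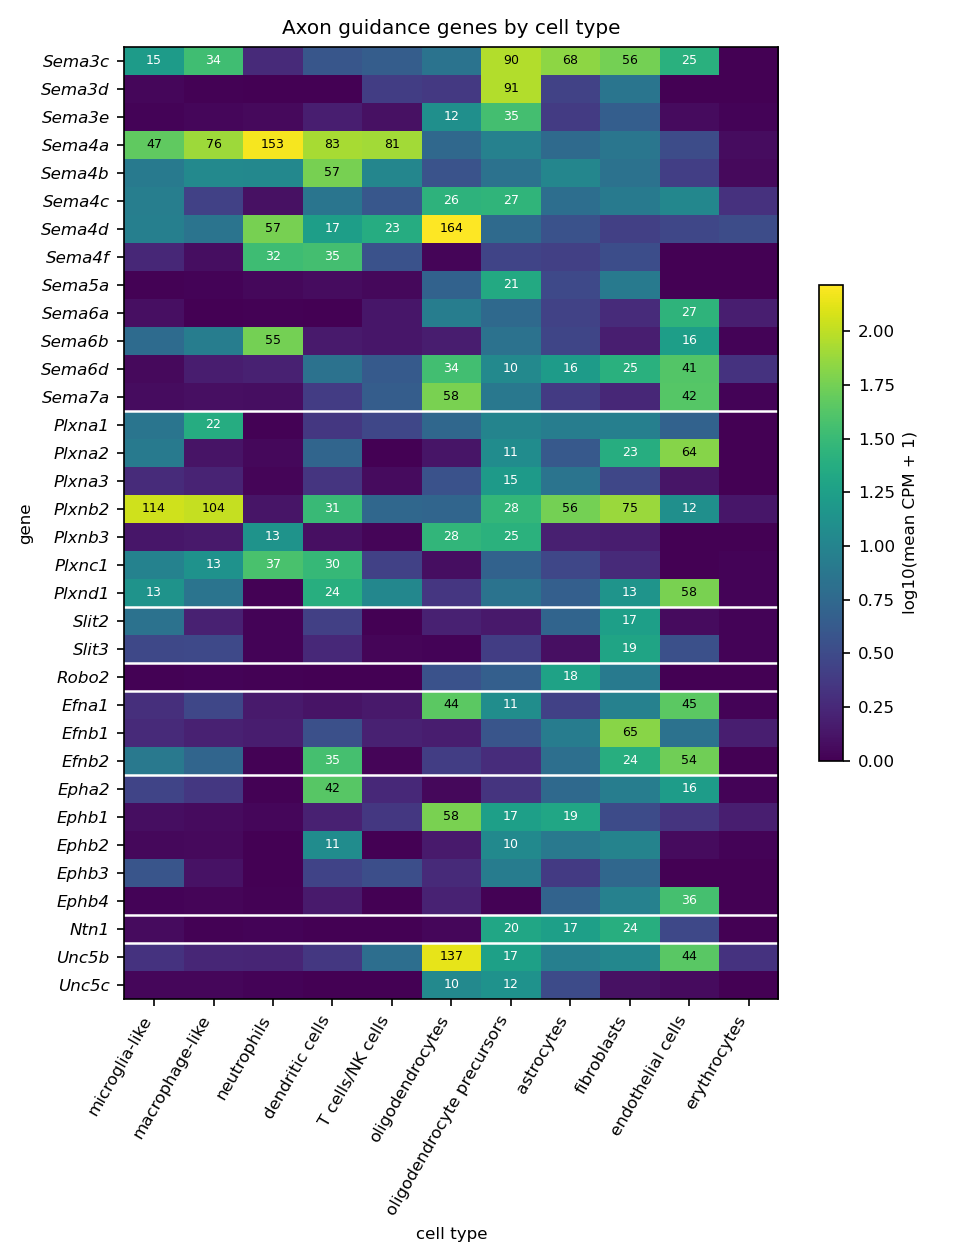
Mean level of each well-counted guidance gene (rows, by family) in each cell type (columns), as log10 of the mean CPM plus 1 over libraries with at least 20 cells of the type. Numbers in the cells are mean CPM of at least 10. Sema4d and Unc5b stand out in oligodendrocytes (164 and 137 CPM), Sema3d in oligodendrocyte precursors (91), Plxnb2 in microglia-like and macrophage-like cells (114 and 104), and erythrocytes hold none at 10 CPM.

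Oligodendrocyte precursors, the dividing cells that replace myelinating oligodendrocytes, had the highest mean levels of the class 3 semaphorins Sema3c, Sema3d and Sema3e, while Sema3a, Sema3b, Sema3f and Sema3g, all under 500 UMIs, were highest in other types. Sema3d, a secreted repellent, had a lowest, median and highest level of 15.4, 63.2 and 290 CPM over their 8 libraries and averaged 90.7 ± 86.1 CPM (SD, n = 8), against 6.23 CPM in fibroblasts, the type next in order. It was higher in precursors than in fibroblasts in 8 of 8 libraries, and 90.7% of its UMIs in named types were in precursors. The edgeR quasi-likelihood test of precursors against the other types gave an adjusted p of 1.1e-27. Sema3d passed the cut at 500 UMIs through these same cells (3136 of its 3457 UMIs), so this test is not independent of its choice. Sema3e, a ligand of Plxnd1, averaged 35.2 ± 31.2 CPM in precursors and 11.6 CPM in oligodendrocytes, and the precursors were above in 8 of 8 libraries. Sema3c averaged 90.1 ± 52.6 CPM in precursors, but astrocytes were near it at 67.6 CPM and above it in 2 of 7 libraries. Sema5a, a transmembrane semaphorin, averaged 21.2 ± 38.6 CPM, a mean set by 1 sham library at 116 CPM (median 7.21). Among receptors, Plxnb3 reached 25.2 CPM, Plxna3 15.2 ± 4.73 and Unc5c 12.5 ± 6.21 CPM, and the netrin Ntn1 19.7 CPM, all called higher. Sema5a (471 of its 794 UMIs) and Plxna3 (797 of 1293) also passed the cut at 500 UMIs only with the precursors. Their calls here are thus not independent of their choice either.

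Among members highest in precursors, Sema3d and Sema3e had the largest shares of their UMIs there (90.7% and 63.0%). Plxna3 (61.8%) and Sema5a (59.8%) were near Sema3e, which was not among the 5 largest log2 differences of this type. Sema3d and Sema3e were both called lower there in injured than in sham libraries. Both changes were smaller without sham replicate 1, the library in doubt (below). For this their promoters are shown, from 250 bases before to 50 bases after the start in RefSeq's GRCr8 assembly. The counts used the earlier Rnor_6.0 build, so no coordinates were carried over. The 2 genes lie on the minus strand of chromosome 4, Sema3d at chr4:23460922-23461221 and Sema3e at chr4:21510325-21510624. Capitals mark ACAANG, the core letters bound by SOX factors, searched on both strands. It occurs 1 time in the Sema3d window and 0 times in that of Sema3e, against 42.1% of all 33469 promoters of this length with at least 1 match and 11 of the 28 well-counted members with an entry. The E-box CAGCTG, which is the same on both strands and does not overlap with the former, is in neither window, in 15.1% of all promoters and in 6 of the 28.
Sema3d: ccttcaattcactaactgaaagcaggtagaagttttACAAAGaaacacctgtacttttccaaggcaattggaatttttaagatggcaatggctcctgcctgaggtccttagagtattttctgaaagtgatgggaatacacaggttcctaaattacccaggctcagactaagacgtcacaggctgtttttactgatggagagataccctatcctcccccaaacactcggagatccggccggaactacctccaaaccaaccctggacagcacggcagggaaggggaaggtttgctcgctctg
Sema3e: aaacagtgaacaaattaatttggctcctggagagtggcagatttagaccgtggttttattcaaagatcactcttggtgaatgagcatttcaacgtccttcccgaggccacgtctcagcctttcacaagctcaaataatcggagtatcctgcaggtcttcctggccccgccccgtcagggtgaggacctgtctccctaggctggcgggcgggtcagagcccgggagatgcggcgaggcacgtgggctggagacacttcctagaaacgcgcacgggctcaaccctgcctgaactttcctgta
The letters are a description of these windows and say nothing of which factor acts there.

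Oligodendrocytes, the myelinating cells, were marked by Sema4d and the netrin receptor Unc5b. Sema4d, a transmembrane semaphorin that signals through plexin-B receptors, ran from 91.3 to 266 CPM over 8 libraries with a median of 164, and 66.0% of its UMIs in named types were in these cells. Neutrophils were next at 56.6 CPM. Unc5b ran from 64.5 to 315 CPM (median 114), averaged 137 ± 78.1 CPM and was higher than in endothelial cells, which averaged 43.8 CPM, in 4 of 4 shared libraries (adjusted p = 1.1e-36 against the other types, edgeR). Ephb1, a receptor for B-type ephrins, averaged 57.6 ± 23.6 CPM, and Sema7a, which is tied to the membrane by a lipid anchor, 57.8 ± 48.0 CPM with 75.9% of its UMIs in oligodendrocytes. Plxnb3 averaged 28.0 ± 11.3 CPM and was above precursors in 6 of 8 libraries, so these neighbouring types differed little in it. Unc5c averaged 10.0 CPM, and it was higher in precursors in 5 of 8 libraries.

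Fibroblasts had the highest mean levels of Slit2, Slit3, Ntn1 and Efnb1. Efnb1, a transmembrane ephrin, ran from 33.3 to 108 CPM (median 64.5) with 77.6% of its UMIs in fibroblasts, and astrocytes, next in order, averaged 7.46 CPM. Slit2 averaged 17.0 ± 9.98 CPM and Slit3 18.8 ± 21.1 CPM, the latter with 1 library at 65.9 CPM and a median of 12. Fibroblasts held 40.1% of the Slit2 and 36.5% of the Slit3 UMIs in named types, and both genes were also called higher in microglia-like cells. Ntn1 averaged 23.6 ± 13.8 CPM and did not stand clear of precursors, which were below it in 4 of 8 libraries. Robo2, a receptor of the Slits, was highest in astrocyte-like cells at 18.0 ± 13.8 CPM (0 to 44.2, n = 7). Endothelial cells, in 4 libraries, held Plxna2 at 64.0 ± 48.0, Plxnd1 at 57.7 ± 33.6, Efnb2 at 53.9 ± 31.3, Sema7a at 41.9 ± 26.6, Ephb4 at 35.9 ± 19.3 and Sema6a at 26.5 ± 6.26 CPM. Efnb2 and Ephb4, an arterial ligand and a venous receptor, thus stood in 1 cluster that was not divided by vessel kind.

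Among immune cells, several class 4 semaphorins and plexins had their highest levels, while Sema4c, Sema4d, Plxna2, Plxna3, Plxnb3 and Plxnd1 peaked in other cells. Sema4a, a regulator of T cell responses, was called higher in 5 types, all immune, with 153 ± 105 CPM in neutrophils (n = 3), 82.8 ± 18.1 in dendritic cells (n = 6), 76.4 in macrophage-like, 46.7 in microglia-like and 80.9 in T cells/NK cells. Sema4d and Sema4a were the called members of T cells/NK cells at 10 CPM or more. Neutrophil means give 3 libraries equal weight, with 4787 cells in sham replicate 1, 28 in moderate replicate 1 and 33 in severe replicate 2. Of the Sema4f UMIs in neutrophils 290, 2 and 0 came from these libraries in turn, so single UMIs move the means. Macrophage/microglia markers summed to 6444 CPM in neutrophils of sham replicate 1 and to 19417.5 and 32024 CPM in those of the 2 injured libraries. Plxnc1, the Sema7a receptor, averaged 37.2 CPM in neutrophils and 29.8 in dendritic cells, and Sema6b averaged 55.4 CPM in neutrophils. Plxnb2, a receptor of class 4 semaphorins, ran from 57.9 to 203 CPM in microglia-like cells (median 109) and from 69.6 to 152 in macrophage-like cells (median 97.9), and microglia-like cells were above in 5 of 8 libraries. Dendritic cells were highest in Sema4b (56.6 ± 23.9), Epha2 (42.4 ± 27.5), Sema4f (34.6 ± 12.6) and Ephb2 (11 ± 4.65 CPM, beside 10.3 in precursors).

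Set side by side by known pairing, several ligands and receptors peaked in different types, with no interaction tested. The precursors' Sema3c, Sema3d and Sema3e stood opposite endothelial Plxnd1 (57.7 CPM), Plxna2 (64.0) and the coreceptor Nrp1 (109), which averaged 5.93, 11 and 3.81 CPM in the precursors themselves. Oligodendrocyte Sema4d at 164 CPM stood opposite Plxnb2 at 114 CPM in microglia-like cells and 4.30 in oligodendrocytes, and opposite its immune receptor Cd72 at 46.3 CPM in dendritic cells. Ntn1 of fibroblasts (23.6) stood opposite Unc5b of oligodendrocytes (137) and Neo1 there (30 CPM). Slit2 and Slit3 of fibroblasts stood opposite Robo2 at 18.0 CPM in astrocyte-like cells and 7.17 CPM in fibroblasts themselves, with 10.6 to 21.7 CPM in 1 of their clusters (below). By contrast, Sema6a and its receptor Plxna2 both peaked in endothelial cells, and Sema4c of precursors (27.4 CPM) met 28.3 CPM of Plxnb2 in the same cells. Over the well-counted members, ligand levels summed to 368 CPM in oligodendrocytes and 350 in precursors and receptor levels to 250 in oligodendrocytes and 235 in endothelial cells, the largest sums in each role, beside 6.21 and 2.23 CPM in erythrocytes.

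Within macrophages/microglia, macrophage-like cells (14555) were compared with microglia-like cells (11776) of the same library. Clusters were split by whether they held a larger share of the macrophage or of the microglia marker list. This does not show whether the cells had infiltrated or were resident. The comparison of these 2 kinds of cells was chosen after seeing the data. Of the 34 members 17 were called, 7 higher and 10 lower in macrophage-like cells, where 37.6% of all 13054 genes were called. Plxna1, which forms a receptor with neuropilin or with Trem2, ran from 6.56 to 31.9 CPM in macrophage-like cells (median 24.2) and from 2.33 to 16.4 CPM in microglia-like cells. It was higher in 8 of 8 libraries, by 2.19 ± 0.18 on the log2 scale (SE, adjusted p = 4.0e-16, edgeR). Plxna2 went the other way, with 3.36 to 11 CPM in microglia-like and 0 to 1.31 CPM in macrophage-like cells (log2 change -4.63 ± 0.32, adjusted p = 2.2e-18), and the 2 ranges did not overlap. Slit2 showed the same separation, at 2.59 to 7.92 against 0 to 1.46 CPM. The share of all genes without overlap was not taken here either.

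Sema3c (33.6 against 15.4 CPM on average, log2 change 1.46 ± 0.31) and Sema4a (76.4 against 46.7) were also higher in macrophage-like cells in 8 of 8 libraries, and Sema4b, Sema6b and Efna1 in 7. Sema4c (1.69 against 7.80), Ephb3 (0.286 against 2.84) and Sema4f (0.209 against 0.769 CPM) were lower in 8 of 8. Sema6a, Ntn1, Epha2, Efnb2 and Plxnd1 were called lower as well, the first 2 of them at under 0.3 CPM in either type. Plxnc1 was called higher with 5 of 8 libraries in that direction. Of 57 partner genes (coreceptors, cytoplasmic mediators and effectors of guidance signalling) 7 were higher and 11 lower, led by Met (log2 change 5.98 ± 0.52), a receptor kinase that couples to plexin-B, Fyn (3.04 ± 0.22), a kinase downstream of several guidance receptors, and the adaptor Nck2 (-1.59 ± 0.30).

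**Figure D2:**
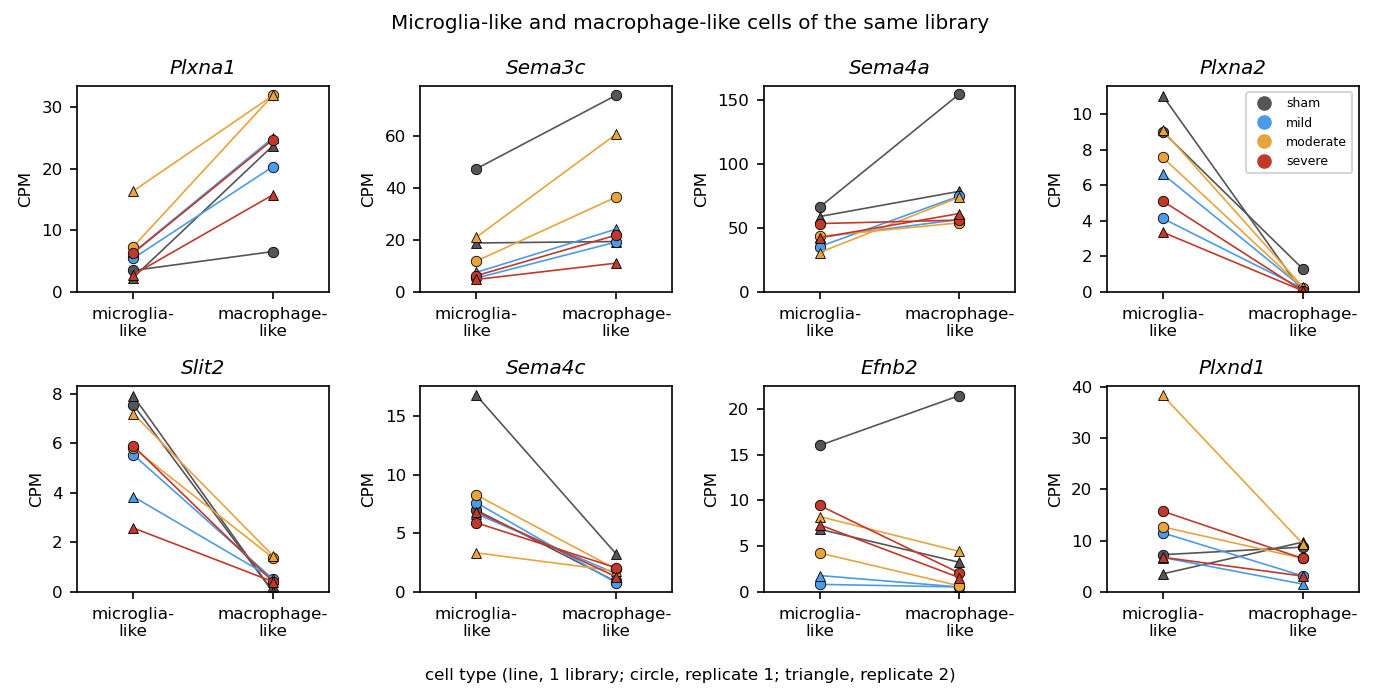
Level in CPM of 8 guidance genes in microglia-like and macrophage-like cells, with 1 line per library. Plxna1, Sema3c and Sema4a rise from left to right in all 8 libraries, Plxna2, Slit2 and Sema4c fall in all 8, and Efnb2 and Plxnd1 fall in 7 and 6 of 8.

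In dendritic cells and fibroblasts, the types whose clusters were compared, the average of the type hid differences between clusters. Dendritic cells comprised a cluster with Siglech and Irf8, genes of plasmacytoid dendritic cells, among its leading 10 genes, and a cluster led by MHC class II genes. This pair and the fibroblast pair below were chosen after seeing the data. The Siglech Irf8 cluster held 8 of 15 dendritic cell markers and 5 B cell markers, the other cluster 13 and 4. Without doublet removal, a cluster of 221 cells with Siglech among its leading genes matched B cells best and was left unnamed. The name of the Siglech Irf8 cluster is therefore less certain. In 6 injured libraries 8 members could be tested and 5 were called, among 4845 genes of which 52.5% were called. A call was thus common in this pair, and the count is not a trait of guidance genes. Sema4b ran from 89.6 to 265 CPM in the Siglech Irf8 cluster and from 4.56 to 16.4 CPM in the MHC class II cluster (log2 change 3.95 ± 0.21, adjusted p = 1.3e-08, edgeR). Epha2 ran from 45.4 to 189 against 0 to 9.81 CPM (4.90 ± 0.35) and Efnb2 from 21.1 to 290 against 0 to 16.4 CPM (3.15 ± 0.26). Sema4a and Sema4f were the reverse, Sema4a with 0 to 47.8 against 91.9 to 149 CPM (-3.40 ± 0.41) and Sema4f with 3.75 to 18.4 against 26.4 to 76.2 CPM (-2.73 ± 0.29). None of these 5 pairs of ranges overlapped, but the 5 were picked by their call and the share of all genes without overlap was not taken. Ephb2, too sparse for the test, ran from 16.4 to 51.4 CPM in the Siglech Irf8 cluster and from 0 to 0.759 CPM in the MHC class II cluster.

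Fibroblasts comprised a cluster with Igfbp5 and Lox among its leading genes (1367 cells) and a cluster with Igfbp3 and Myoc among them (907 cells). In 7 libraries 18 members were tested and 8 called (15.2% of 8853 genes). Of 5 secreted cues tested 3 were called, all higher in the Igfbp5 Lox cluster: Ntn1 at 42.3 ± 22.7 against 8.95 ± 5.65 CPM (log2 change 2.24 ± 0.23), Sema3c at 94.2 ± 32.1 against 31.9 ± 15.8 CPM (1.41 ± 0.19) and Slit2 at 26.8 ± 7.62 against 8.90 ± 7.03 CPM (1.49 ± 0.28). Slit3 (1.05 ± 0.42, adjusted p = 0.127) and Sema3d (0.26 ± 0.34, adjusted p = 0.712) were not called. Of 13 membrane-bound members 5 were called, all lower there, and the other 8 had log2 changes between -0.66 and 0.49. Robo2 had 0 to 0.941 CPM against 10.6 to 21.7 CPM in the same 7 libraries (-4.76 ± 0.34), Sema6d 3.85 ± 3.98 against 32.2 ± 30.4 CPM (-2.74 ± 0.29), and Efnb1, Efnb2 and Plxnd1 were lower by 1.22, 1.06 and 1.17 on the log2 scale. The means of the Igfbp3 Myoc cluster include sham replicate 2, whose 28 fibroblasts carried pericyte markers at 13136 CPM against 347 to 2268 CPM elsewhere.

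**Figure D3:**
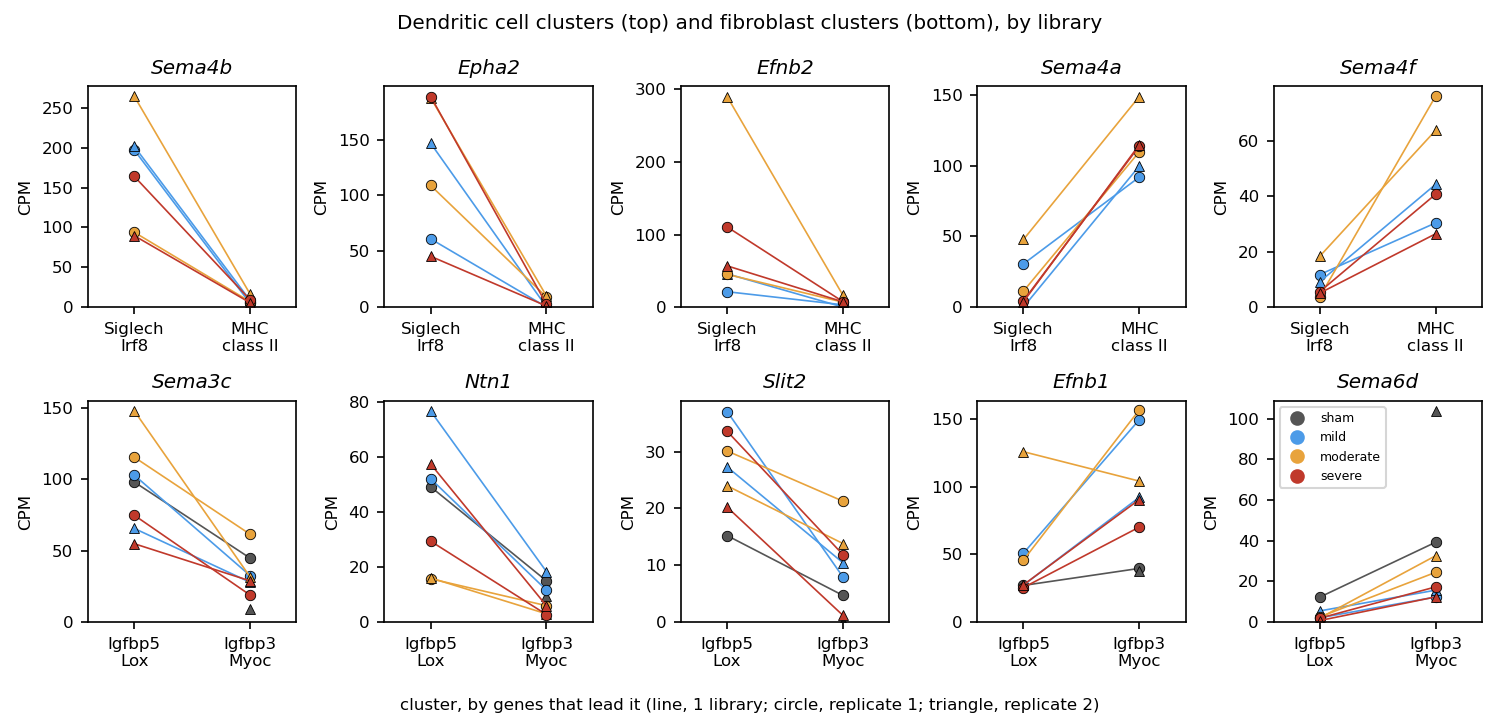
Level in CPM of 5 members in each of the 2 dendritic cell clusters (top) and the 2 fibroblast clusters (bottom), with 1 line per library and unjoined points where only 1 of the clusters had 20 cells. Sema4b, Epha2 and Efnb2 are high in the Siglech Irf8 cluster, Sema4a and Sema4f in the MHC class II cluster, and Sema3c, Ntn1 and Slit2 in the Igfbp5 Lox cluster.

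Injury was first compared as the mean of the 3 injured groups against sham, in macrophages/microglia, oligodendrocytes and oligodendrocyte precursors. Fewer cells of a kind and less RNA per cell cannot be told apart within a summed type. In macrophages/microglia 25 members were tested and 4 were called (9.93% of 13277 genes), 1 up and 3 down. Plxna1 had 4.72 and 3.25 CPM in the sham libraries, 14.0 and 14.7 in mild, 20.6 and 25.8 in moderate and 22.0 and 11.1 in severe injury (log2 change 2.37 ± 0.32, adjusted p = 0.0103, edgeR). Efnb2, a transmembrane ephrin, had 18.2 and 6.70 CPM in sham and 0.671 to 5.90 CPM in the injured libraries (-2.11 ± 0.44, adjusted p = 0.0283). Plxna2 had 5.94 and 10.6 CPM in sham and 0.820 to 3.76 CPM after injury (-1.74 ± 0.38, adjusted p = 0.0317), and Slit2 4.54 and 7.58 against 1.2 to 3.69 CPM (-1.31 ± 0.30, adjusted p = 0.0349). Sham and injured libraries did not overlap in any of the 4, which were picked by their call. The share of all genes without overlap was not taken.

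All 4 were also among the 17 members called between macrophage-like and microglia-like cells, and the makeup of the type moved with injury. Macrophage-like cells were 49.3 and 4.79% of macrophages/microglia in the sham libraries and 45.3 to 84.7% in the injured ones, the summed macrophage markers 7613 and 4504 against 20209 to 33332 CPM, and neutrophil markers 15306 CPM in sham replicate 1 against 232 to 2358 CPM in the other 7 libraries. In microglia-like cells alone none of the 4 was called (adjusted p = 0.114 for Plxna1, 0.0947 for Efnb2, 0.166 for Plxna2 and 0.307 for Slit2), and of 22 members tested 1 was (3.0% of 12078 genes), Sema3c, with 47.4 and 18.9 CPM in sham and 4.83 to 21.1 CPM after injury (log2 change -1.79 ± 0.31, adjusted p = 0.0327, ranges overlapping). Whether the makeup accounts for the change in the summed type was not tested further. Plxna1 kept its call with any 1 library left out (adjusted p from 0.00704 to 0.0400), while Slit2 and Plxna2 kept theirs without sham replicate 1 and lost them with any 1 of the other 7 left out, and Efnb2 kept its call without sham replicate 2 or moderate replicate 2 alone. Partner genes gave 1 call up and 2 down of 55 tested: Dpysl2, a collapsin response mediator that relays semaphorin signals (-2.29 ± 0.20), Srgap2, a Robo-linked GTPase regulator (-1.39 ± 0.35), and Gipc1, a plexin and neuropilin adaptor (0.94 ± 0.18).

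In oligodendrocyte precursors 31 members were tested and 5 were called, all lower after injury, where 10.7% of 12100 genes were called. Sema3e had 109 and 43.8 CPM in sham and 19.8, 29.9, 20.3, 24.7, 14.7 and 19.0 CPM in the mild, moderate and severe libraries in turn (log2 change -1.68 ± 0.30, adjusted p = 0.00702, edgeR), with no overlap. Sema3d had 290 and 95.9 CPM in sham, 73.1 and 109 in mild, 47.8 and 53.3 in moderate and 41.2 and 15.4 in severe injury (-1.82 ± 0.35, adjusted p = 0.0101). The lower sham library lay within the mild group's range. Sema5a had 116 and 13.7 CPM in sham and 0.736 to 16.4 CPM after injury (-3.34 ± 0.56, adjusted p = 0.00554), and Ephb1 45.7 and 17.8 against 2.94 to 21.7 CPM (-1.41 ± 0.37, adjusted p = 0.0317), both overlapping. Plxnc1 had 11.4 and 8.22 CPM in sham and 0.777 to 2.93 CPM after injury (-2.29 ± 0.58, adjusted p = 0.0285), with no overlap. Its 2 sham values rest on few UMIs, from 79 cells each. Sema3e and Plxnc1 were picked by their call, and the share of all genes without overlap was not taken.

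Without sham replicate 1 none of the 5 passed (adjusted p = 0.206 for Sema3e, 0.243 for Sema3d, 0.406 for Sema5a, 0.205 for Plxnc1 and 0.551 for Ephb1, with the lone sham library assumed to vary like the other groups), and without sham replicate 2 the count was 10. The log2 change without sham replicate 1 was smaller for Sema3e (-0.88), Sema3d (-0.84), Sema5a (-1.15) and Ephb1 (-0.59), and near the full value for Plxnc1 (-2.03). Sema3e, Sema3d and Sema5a kept their calls with any 1 other library left out. Ephb1 also lost its call without mild replicate 1 or moderate replicate 2, and Plxnc1 lost its call in 6 of 8 such fits, the one without sham replicate 2 included (adjusted p = 0.0537). Sham replicate 1 stood apart in these cells too. Its precursors, 79 cells, carried neutrophil markers at 6543 CPM against 1.37 to 293 CPM elsewhere and fibroblast markers at 4478 against 66.1 to 616 CPM. Markers of oligodendrocyte precursors themselves summed to 6977 and 5540 CPM in the sham libraries and to 2089 to 3850 CPM after injury. The part of these differences in the result was not tested. Of 55 partner genes 3 were higher and 3 lower, led by Dcc, a netrin receptor (-2.37 ± 0.66), Srgap3 (-1.96 ± 0.31) and Dpysl2 (-1.50 ± 0.34).

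**Figure D4:**
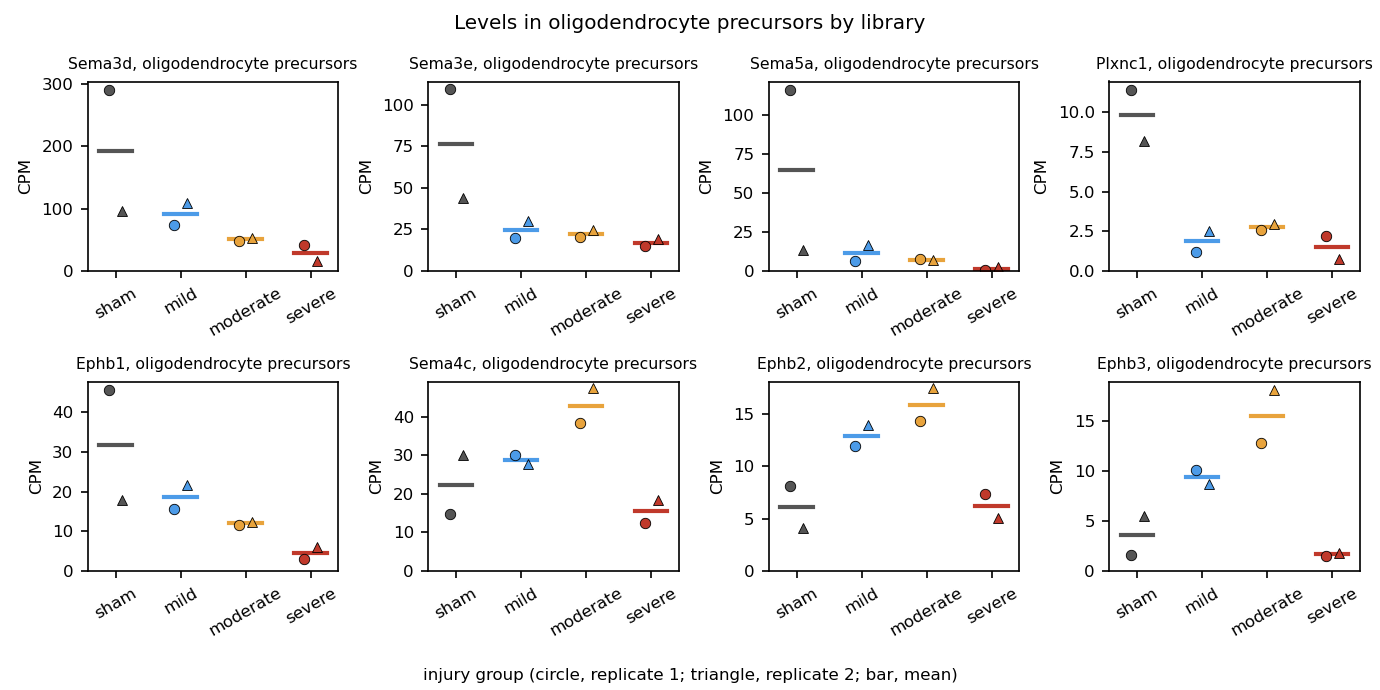
Level in CPM of 8 guidance genes in oligodendrocyte precursors, with 1 point per library and a bar at the group mean. Sema3d, Sema3e, Sema5a, Plxnc1 and Ephb1 are highest in sham replicate 1, and Sema4c, Ephb2 and Ephb3 are highest in the moderate libraries and low in the severe ones.

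In oligodendrocytes 0 of 18 members were called by edgeR (3.68% of 9768 genes) and 1 by DESeq2. An unadjusted edgeR p under 0.05 was found for 6 of the 18, beside 2294 of the 9768 genes. Sema3e had 22.5 and 16.0 CPM in sham and 3.85 to 14.5 CPM after injury (-1.19 ± 0.32, adjusted p = 0.0662), and Sema6d 53.2 and 61.6 against 15.4 to 49.9 CPM (-1.14 ± 0.30, adjusted p = 0.0611). Both were lower in every injured library than in either sham library without passing the test. How many of all genes separate in this way was not taken, so the separation adds nothing to the test. Ephb1 had 25.6 and 66.1 CPM in sham and 38.6 to 91.2 CPM after injury (0.61 ± 0.35, adjusted p = 0.319). Partner genes gave 3 calls up and 1 down of 41, the largest in Dpysl3 (3.73 ± 0.53), Dpysl4 (2.24 ± 0.40) and Gipc1 (1.41 ± 0.23).

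The change with injury was compared between these types in a fit that shares the libraries. Sema3d alone differed, with a log2 change 5.27 ± 0.86 higher in oligodendrocytes than in precursors (adjusted p = 0.0198), where 0.776% of 12244 genes were called. Its level in oligodendrocytes was 0.176 and 0 CPM in sham and 0 to 3.44 CPM after injury, so the difference sets a fall from a high level beside values of few UMIs. Macrophages/microglia against oligodendrocytes (0.172% of all genes) and against precursors (0.844%) gave 0 called members by edgeR. An unadjusted p under 0.05 was found for 2 of 31 and 9 of 33 members, beside 1565 of 13386 and 2222 of 13975 genes. DESeq2 was not run on these differences.

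A slope over the injured groups, without the sham libraries, called 0 members by edgeR in any of 5 types. In macrophages/microglia 0 of 25 were called (2.40% of 12985 genes; 7 at an unadjusted p under 0.05, 2 by DESeq2), in oligodendrocyte precursors 0 of 32 (1.30%; 5 and 3), in oligodendrocytes 0 of 18 (0.191%; 2 and 0), in fibroblasts 0 of 27 (0.117%; 2 and 0) and in T cells/NK cells 0 of 2 (0.537%; 0 and 0). The unadjusted cut was passed by 2439 of 12985 genes in macrophages/microglia, 1908 of 12119 in precursors and 1068 of 9405 in oligodendrocytes. In fibroblasts 1627 of 11064 genes and in T cells/NK cells 628 of 5031 passed it. In precursors Sema5a, Ephb1 and Sema3d changed by -1.06 ± 0.29, -0.77 ± 0.20 and -0.75 ± 0.20 log2 per step (adjusted p = 0.119, 0.103 and 0.107). In macrophages/microglia Plxnc1 had 0.50 ± 0.19 (adjusted p = 0.199), Plxna1 0.29 ± 0.19 (0.446) and Plxnb2 -0.24 ± 0.15 (0.443). Sema7a in oligodendrocytes, 18.8 and 33.8 CPM in mild, 56.8 and 170 in moderate and 43.4 and 70.0 in severe injury, had 0.70 ± 0.40 (0.540), beside Sema4c (-0.60 ± 0.21, 0.323) and Plxnb3 (0.53 ± 0.22, 0.403). In fibroblasts Efnb2, Efnb1 and Sema6d had adjusted p-values of 0.310, 0.412 and 0.759, and in T cells/NK cells Sema4a and Sema4d 0.411 and 0.834. Partner genes called were Rnd1 (2.43 ± 0.39 per step), a GTPase that acts on plexins, and Srgap1 (-0.90 ± 0.19) in macrophages/microglia and the Eph-linked exchange factor Ngef (-1.13 ± 0.22) in precursors.

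Several levels were not monotone, so the severe group was also set against the mild and moderate groups together, a comparison chosen after seeing the data. In oligodendrocyte precursors 8 of 32 members were called, all lower in severe injury, where 18.9% of 12119 genes were called. Severe and other injured libraries did not overlap in any of the 8. These were picked by their call and the share of all genes without overlap was not taken, so this adds nothing to the calls. Ephb3, a receptor for B-type ephrins, had 10.1 and 8.65 CPM in mild, 12.8 and 18.1 in moderate and 1.47 and 1.81 in severe injury (-2.41 ± 0.37, adjusted p = 0.00112, edgeR). The sham libraries, not in this fit, had 1.63 and 5.48 CPM. Ephb2 (11.9 to 17.5 against 7.36 and 5.05 CPM, -1.0 ± 0.28) and Sema4c (27.8 to 47.4 against 12.5 and 18.5 CPM, -0.75 ± 0.23) had the same form. Sema5a (-1.84 ± 0.49), Sema6d (-1.23 ± 0.38), Ephb1 (-1.15 ± 0.31) and Sema3d (-1.13 ± 0.31) were lowest in the severe libraries of all 8. The Ephb3 and Sema5a levels of severe replicate 1, from 72 cells, rest on few UMIs.

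Plxnb2 was lower in severe than in mild and moderate injury in 4 types. In precursors it had 16.3 and 17.8 CPM in sham, 36.5 and 37.5 in mild, 41.0 and 40 in moderate and 19.9 and 17.5 in severe injury (-0.75 ± 0.21, adjusted p = 0.0278). In oligodendrocytes it had 4.62 to 10.3 CPM in mild and moderate and 0.963 and 1.76 CPM in severe injury (-1.77 ± 0.49, adjusted p = 0.0374). The 0.963 CPM of severe replicate 1, from 68 cells, rest on few UMIs. This oligodendrocyte call was lost with any 1 of the injured libraries left out (log2 change -1.58 to -2.40). Among such fits the precursor call was kept only without severe replicate 1 (log2 change -0.71 to -0.79 over the fits). In macrophages/microglia Plxnb2 had 133 to 172 against 72.4 and 73.1 CPM (-0.56 ± 0.18, adjusted p = 0.0777) and in fibroblasts 83.1 to 115 against 44.6 and 43.1 CPM (-0.73 ± 0.18, adjusted p = 0.0509), neither past the test. Sham fibroblasts did not share a level. Plxnb2 had 31.7 and 32.0 CPM in the 2 fibroblast clusters of sham replicate 1. In the 28 fibroblasts of sham replicate 2 it had 104 CPM (11 UMIs), within the mild and moderate range. These libraries are shared between types, so the 4 results are not independent. Macrophage/microglia markers were lower in the severe libraries as well. The summed markers of macrophages/microglia were 136 and 244 CPM in severe and 478 to 796 CPM in mild and moderate precursors, 294 and 370.3 against 525 to 1241 CPM in oligodendrocytes, and 260 and 295 against 580.5 to 877 CPM in fibroblasts. Their part in the Plxnb2 result, as that of the erythrocyte markers at 1948 CPM in precursors of severe replicate 2, was not tested.

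In oligodendrocytes 3 of 18 members were called (15.4% of 9405 genes): Plxnb2, Sema4c (30.9 to 44.1 against 10.6 and 13 CPM, -1.24 ± 0.27) and, higher in severe injury, the ligand Efna1 (25.2 to 43.7 against 67.4 and 48.2 CPM, 0.93 ± 0.24). In fibroblasts 1 of 27 was called (9.54% of 11064 genes), Efnb1, with 82.9 to 108 CPM in mild and moderate, 35.7 and 46.0 CPM in severe injury and 33.3 and 37.6 CPM in sham (-0.80 ± 0.18, adjusted p = 0.0393). Plxnb2 and Sema6d (-1.04 ± 0.48, adjusted p = 0.189) followed. For Efnb1, the sham value of 37.6 CPM was 4 UMIs. The Igfbp5 Lox cluster, lower in Efnb1, held 380 of 474 and 215 of 304 severe fibroblasts. It held 174 of 260 and 21 of 108 in mild and 281 of 498 and 35 of 152 in moderate injury. Within it Efnb1 had 25.5 and 27.6 CPM in severe and 27.3 (5 UMIs) to 126 CPM in mild and moderate injury. In the Igfbp3 Myoc cluster it had 70.2 and 90.6 against 92.2 to 157 CPM. The part of this makeup was not tested. In macrophages/microglia 0 of 25 were called by edgeR (11.9% of 12985 genes) and 7 by DESeq2. An unadjusted edgeR p under 0.05 was found for 12 of the 25, beside 4022 of the 12985 genes. Plxnc1 and Sema4a had 0.71 ± 0.30 and 0.46 ± 0.16 there (adjusted p = 0.158 and 0.104). Leaving out 1 library moved the precursor count to between 1 and 8, with 1 without mild replicate 2, 3 without severe replicate 2 and 5 without moderate replicate 2. Ephb3 was called in each of these. The oligodendrocyte count fell to 0 without mild replicate 1 and to 1 without mild replicate 2, severe replicate 1 or severe replicate 2, and Efnb1 lost its call with any 1 of the 6 injured libraries left out. Partner genes gave 4 calls up and 12 down of 55 in precursors, among them Trem2 (-1.87 ± 0.51) and Tyrobp (-1.43 ± 0.31), genes of microglia and macrophages.

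**Figure D5:**
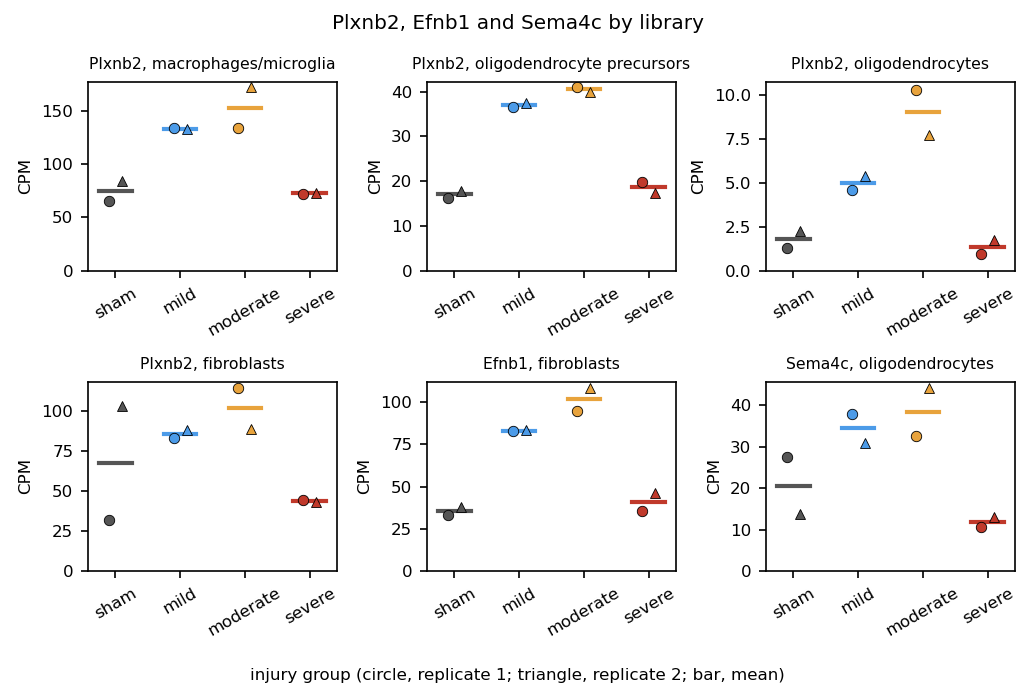
Level in CPM of Plxnb2 in 4 types, Efnb1 in fibroblasts and Sema4c in oligodendrocytes, with 1 point per library and a bar at the group mean. In each panel the mild and moderate libraries lie above the severe ones, and Efnb1 in sham libraries (33.3 and 37.6 CPM) lies near the severe ones (35.7 and 46.0). The 37.6 CPM of sham replicate 2 were 4 UMIs from 28 cells.

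Members under 500 UMIs are given by level alone. Epha1 averaged 13.6 ± 6.37 CPM and Robo3 10.0 ± 4.53 CPM in dendritic cells (n = 6), which held 46.2% of the Epha1 and 89.8% of the Robo3 UMIs in named types. In endothelial cells (n = 4) Epha4 averaged 20.2 ± 11.3, Sema3g 15.1 ± 10.5 and Sema3f 12.5 ± 9.17 CPM, with 19.1%, 16.1% and 23.3% of their UMIs there. Epha3 and Epha7, both under 10 CPM, averaged 8.65 ± 6.80 and 7.11 ± 4.6 CPM in fibroblasts, with 96.1% and 91.0% of their UMIs there.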

How the data were processed

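Single-cell RNA was captured with the 10x 3′ kit (version 3) from 8 libraries. The authors deposited raw UMI counts per gene and barcode, made with Cell Ranger (5.0.1 in the matrix headers) against Rnor_6.0, and the files hold no cell types. From these counts, cells with over 10% mitochondrial UMIs, the top 7.7% of Scrublet scores per library (scanpy 1.11.5) and cells beyond 2 SD of the mean UMIs or genes were removed. Cells were clustered in Seurat 5.3.0 (4000 variable genes without the guidance and partner genes, 15 principal components, resolution 0.4). A cluster was named on at least 3 markers, with 1 among its leading 50 genes, unless its leading 10 held more markers of another type. After the clusters were seen, macrophage and microglia subset markers were let count as macrophages/microglia. This named a cluster of 4909 cells with Fn1, Vcan and the neutrophil marker Fcnb among its leading genes. Names are rebuilt and may differ from the study's. No step removed free RNA.

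UMIs were summed per library and type (at least 20 cells) and tested with the edgeR 4.0.16 quasi-likelihood test (R 4.3.3), with Benjamini-Hochberg adjustment over all genes and a threshold of 0.05. DESeq2 1.42.0 was an alternative, for which the share of all genes called is not given. The fits were tested on simulated data. Named were, per type, up to 5 called members of at least 10 CPM with the largest difference and, per injury comparison, all called members or else the 3 largest changes at 10 CPM or more, with the 3 largest partner genes. Clusters, pairs of clusters, the severe contrast, members under 500 UMIs and the partner genes Trem2 and Tyrobp were described outside this rule after their values were seen. Further members of a type were also described outside it. Among them are Sema3c, Sema3e and Plxna3 in precursors, Sema4d in oligodendrocytes and Slit3 in fibroblasts. Plxnd1 in endothelial cells and Sema4b in dendritic cells are others. The members and lists were chosen with earlier results of these data known. Replicate numbers were not treated as pairs in the main fits.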

Additional observations from a re-analysis of the deposited data

Results flagged for a closer look

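Sema3d was singled out because its change with injury differed between cell types, with a log2 difference of 5.27 ± 0.86 (SE, adjusted p = 0.0198, edgeR) between oligodendrocytes and oligodendrocyte precursors. The oligodendrocyte values rest on levels of at most 3.44 CPM.

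Guidance genes were also present in cells and genes that no comparison above used. In the unnamed cluster led by G0s2, Cxcl2 and Il1b (5627 cells, median 925 UMIs), Sema4a averaged 277 ± 65.0 CPM over 7 libraries, above its mean in every named type. In the unnamed cluster of low UMI number with Rack1 among its leading genes (1983 cells), Plxnb2 averaged 58.9 ± 21.5 CPM over 8 libraries. In the unnamed cluster led by Ighm and Cd74 (577 cells), Sema4b averaged 30.7 ± 16.7 CPM over 4 libraries, and in the unnamed cluster led by Pf4 (432 cells) Sema4d was at 28.1 CPM in sham replicate 1, the 1 library with enough cells. Among members under 500 UMIs, Epha1 (13.6 ± 6.37 CPM) and Robo3 (10.0 ± 4.53 CPM) in dendritic cells and Epha4 (20.2 ± 11.3 CPM), Sema3g (15.1 ± 10.5 CPM) and Sema3f (12.5 ± 9.17 CPM) in endothelial cells reached 10 CPM. Groups of 2 libraries were too small for a check of outlying samples.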

How the results depend on the processing

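The largest calls between cell types, up to 5 per type by the naming rule, were the most stable. Each kept its direction and passed the test under every alternative run, 670 of 670 values. Calls described outside that rule, such as Sema4d in oligodendrocytes, are not among these values. The count of all 122 calls ranged from 77 (members of at least 2000 UMIs only) to 150. For the injury and cluster comparisons pooled, 529 values kept their side of the threshold, 101 lost it and none changed sign. The pool also holds macrophage-like against microglia-like cells, so it does not measure the stability of the injury calls alone. Most of the lost values came from injury comparisons with a library left out. The severe comparison and the slope hold no sham library. Leaving out a sham library there repeats the main fit, so those values could not change.

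Without the filter on low counts, counts of called members were 7 in macrophages/microglia, 4 in oligodendrocytes and 8 in oligodendrocyte precursors for injured against sham, 1 in oligodendrocytes and 2 in precursors for the slope, 8 in macrophages/microglia and 7 in fibroblasts for severe against mild and moderate, and 12 for the dendritic cell clusters. Scaling by library size alone gave 7 in macrophages/microglia and 4 in fibroblasts for severe against mild and moderate. In that comparison it moved the tested members by a median of -0.33 to -0.41 on the log2 scale. Resolution 0.8 gave 1 in macrophages/microglia for that comparison, and no doublet removal gave 1 there and 4 in fibroblasts. DESeq2 gave 1 in oligodendrocytes for injured against sham, 2 in macrophages/microglia and 3 in precursors for the slope, and 7, 5 and 3 in macrophages/microglia, precursors and fibroblasts for severe against mild and moderate. Microglia-like cells alone gave 1 for injured against sham and 2 for the slope. The causes were not tested. For the counts in this and the next paragraph the share of all genes called is not given, so they have no background beside them.

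Leaving out 1 library gave 110 to 122 calls between types, 15 to 18 between macrophage-like and microglia-like cells, 4 to 8 between the dendritic cell clusters and 6 to 9 between the fibroblast clusters. For injured against sham it gave 1 to 8 in macrophages/microglia (8 without sham replicate 1), 0 to 3 in oligodendrocytes and 0 to 10 in precursors. For severe against mild and moderate it gave 0 to 1 in macrophages/microglia, 0 to 3 in oligodendrocytes, 1 to 8 in precursors and 0 to 1 in fibroblasts. For the slope it gave 0 to 1 in macrophages/microglia and 0 elsewhere.

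Deviations of same-numbered libraries correlated between -0.245 and 0.239. The labels do not say whether libraries of the same number were processed together, and these correlations cannot exclude it. With the replicate block, counts were 3, 0 and 5 for injured against sham in macrophages/microglia, oligodendrocytes and precursors, and 1 in macrophages/microglia for severe against mild and moderate. The slope in endothelial cells was not run, since 4 of the 6 injured libraries had under 20 of them. With 2 libraries a group, a member that missed the threshold was not shown to be unchanged.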
